A study of Mus musculus with 36 samples.

Results

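The cytosolic ribosomal protein genes code for the proteins of the ribosome outside mitochondria. They were taken here as the protein-coding genes whose mouse symbol starts with Rpl or Rps followed by a digit, together with Rplp0, Rplp1, Rplp2 and Rpsa, leaving out symbols with -ps (copies named as pseudogenes, 215 symbols) and the Rps6k kinases (10 symbols). This gave 85 of the 37315 genes of the count table, 51 with large-subunit names and 34 with small-subunit names. The rule works on names only, so it also takes in Rpl7l1 and Rps19bp1, which are not ribosomal proteins of the standard set, and the paralogs Rpl3l, Rpl10l, Rpl22l1, Rpl36al, Rpl39l, Rps27l and Rps27rt. All libraries came from wild-type C57BL/6 mice that had lived alone in a cage and been handled on 5 days for 3 minutes. The mice either stayed in the home cage, were exposed to a context, or received a foot shock (fear), and polyA RNA was sequenced from tissue taken 90 minutes after the behaviour. Each condition had 3 libraries from each of 4 regions, 36 in all. These were CA1 and CA3 of the hippocampus and the lateral (LEC) and medial (MEC) divisions of the entorhinal cortex. The ages and sexes of the mice, and which libraries came from the same mouse, are not given in the labels used here.

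Each cytosolic ribosome joins a large subunit, which forms peptide bonds, to a small subunit, which reads the mRNA, and each protein is normally present once per ribosome apart from the paired stalk proteins. In neurons, ribosomes work in the cell body and in dendrites, and new protein synthesis is needed for lasting memory. Ribosomal protein mRNAs are short and abundant, and most start with a run of pyrimidines, the terminal oligopyrimidine tract, through which their translation follows growth signals.

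The windows below show this start-site feature, which the rule on names did not use. They hold 30 bases of the gene strand from RefSeq (GRCm38.p6), 15 before and 15 from the annotated start, so that the start base is the 16th letter. Capitals mark the longest unbroken run of C and T. The first 6 belong to members with a long run at the start and the last 2 to the by-name members outside the standard set.
Rpl38 (chr11:114668565-114668594, + strand): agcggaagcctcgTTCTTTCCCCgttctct
Rplp2 (chr7:141447636-141447665, + strand): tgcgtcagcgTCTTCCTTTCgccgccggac
Rps6 (chr4:86857353-86857382, - strand): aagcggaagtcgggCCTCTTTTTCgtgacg
Rps10 (chr17:27635230-27635259, - strand): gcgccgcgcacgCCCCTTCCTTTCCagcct
Rps18 (chr17:33955651-33955680, - strand): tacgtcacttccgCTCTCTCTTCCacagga
Rps27 (chr3:90213634-90213663, - strand): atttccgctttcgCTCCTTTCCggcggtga
Rpl7l1 (chr17:46782642-46782671, - strand): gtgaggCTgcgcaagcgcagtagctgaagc
Rps19bp1 (chr15:80264292-80264321, - strand): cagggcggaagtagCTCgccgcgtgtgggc
Windows matched 65 of the 85 members. A run of 8 or more pyrimidines lay within the window of 27 of them (41.5%), against 14.1% of 16112 other coding genes. A C at the annotated start with C or T at each of the next 4 bases was found in 14 members (21.5%) and in 2.67% of the other coding genes. The windows of Rpl7l1 and Rps19bp1 held no run longer than 3 pyrimidines. A match describes the letters at the annotated start only.

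The mRNAs of the members were short. Their median length was 833 bases, against 2976 bases for the 15367 other coding genes tested, and 58 of the 85 were at most 1000 bases long, a size that 5.62% of the other coding genes had. Coding length had a median of 453 bases against 1392. GC content was close to that of other genes, with a median of 50.94% against 50.43%, and ran from 40.58% in Rpl22l1 to 60.84% in Rpl36. Rps27 had the shortest mRNA (345 bases) and Rps15a the longest (5179 bases, of which 390 are coding). Copies are common in this family: 81 of the 85 mRNAs shared at least 1 stretch of 50 letters with the transcript of another gene, all 81 with an annotated pseudogene, and in the median member 48.5% of the mRNA lay in such stretches. How reads that match several genes were counted is not given in the sources used here, and the values of the members most covered by copies, such as Rps27 (98.6%) and Rpl9 (93.3%), are uncertain. Rpl3l, Rpl39l and Rps19bp1 were among the members that shared no such stretch.

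Library totals ran from 21871412 to 68974340 counts. Of the defining markers, Wfs1, Fibcd1, Pou3f1 and Spink8 of CA1 had their highest regional mean in CA1, while Mpped1, also listed for CA1, was highest in MEC. Bok, Iyd, Grik4 and Cpne4 of CA3 had theirs in CA3, while Coch, also listed for CA3, was highest in LEC. No list separates LEC from MEC. Nothing in the labels says that libraries of a group came from separate mice, so p-values here measure library-to-library spread only, which may be technical. CA1 home cage 2 and CA3 home cage 2 held the largest shares of ribosomal protein counts in their regions and CA3 context 2 the smallest of all 36, and the treatment medians and call counts of CA1 and CA3 are given with and without them.

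Levels differed widely between members. Measured as counts per 1000000 library counts (CPM) per kilobase of mRNA, so that genes of different length can be set side by side, Rpl26 was the highest, at 455 ± 159 (SD, n = 36 libraries), followed by Rpl9 at 410 ± 125, Rpl3 at 372 ± 89.8, Rpl4 at 341 and Rps3a1 at 327. The products of Rpl3 and Rpl4 reach into the peptide-bond-forming centre and the tunnel through which the new chain leaves. These 5 levels lay within 1 SD of their neighbours in the order. The lowest were Rpl10l, Rpl39l, Rpl3l, Rps27rt and Rps19bp1. Rpl10l, a testis paralog of Rpl10, had 0 counts in all 36 libraries, which at 3 counts per library allows up to 0.0435 to 0.137 CPM by library. Rpl39l was at 0 in 20 libraries and reached 0.119 CPM per kilobase on average, and Rpl3l, the paralog of Rpl3 in striated muscle, 0.214. The parent genes stood far above them, with Rpl3 at 372 and Rpl39 at 82.4 CPM per kilobase. The order depended on the length used: with coding length, Rpl41, whose coding sequence of 75 bases is the shortest, was first at 1620 CPM per kilobase of coding sequence, against 277 with the mRNA length. Of the 85 members, 83 passed the filter on low counts in CA1 and LEC and in the fit over all libraries, and 82 in CA3 and MEC. Rpl10l and Rpl39l failed it everywhere and Rpl3l also failed in CA3 and MEC.

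The members together made up 0.713% to 2.38% of a library's counts. In CA1 the share was 1.92 ± 0.399% in home cage (SD, n = 3), 1.19 ± 0.0752% in context and 1.13 ± 0.172% in fear, and each home cage library was above all 6 others. In CA3 it was 1.36 ± 0.348%, 0.783 ± 0.0683% and 0.89 ± 0.14%, and home cage 3, at 0.984%, lay inside the fear range. LEC libraries held 1.3 ± 0.143%, 1.09 ± 0.121% and 0.961 ± 0.168%, with overlapping ranges. MEC libraries held 1.28 ± 0.174%, 0.93 ± 0.0744% and 0.968 ± 0.107%, and each home cage library was above the 6 others. The counts of the 2 subunits kept nearly the same ratio: large-subunit counts were 1.51 ± 0.0431 times small-subunit counts over the 36 libraries, from 1.37 to 1.59. The share of mitochondrially encoded counts moved with the members' share in CA1, at 9.25 ± 2.53% in home cage, 6.26 ± 0.0852% in context and 5.99 ± 1.02% in fear. In MEC it was 7.18 ± 2%, 5.41 ± 0.726% and 5.37 ± 0.435%, with fear clear of home cage, and in LEC 8.41 ± 2.42%, 7.18 ± 1.46% and 6.7 ± 1.87%. In CA3 it was 6.61 ± 1.01% in home cage, 6.53 ± 0.771% in context, with overlap, and 4.97 ± 0.14% in fear, below every home cage library. Its part in the results was not tested. In tissue, fewer cells of a type and less RNA per cell cannot be told apart.

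**Figure D1:**
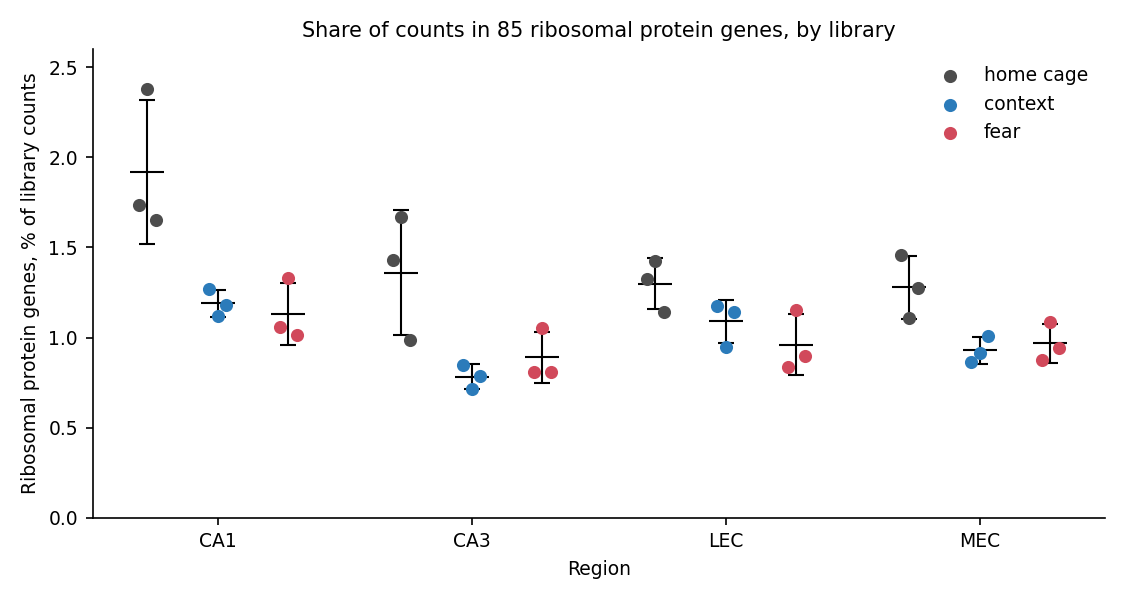
Share of library counts in the 85 ribosomal protein genes (vertical axis, %) in each of the 36 libraries, by region and condition. Points are libraries, and the black bars are the mean and SD of 3 libraries. CA1 home cage has the highest mean, 1.92%, and CA3 context the lowest, 0.783%.

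The question for each region was whether ribosomal protein mRNAs differed after the context or the shock from their level in the home cage. Log2 changes here come from edgeR's quasi-likelihood fit of the 9 libraries of a region, are given with their standard error (SE), and were called at an adjusted p under 0.05 (Benjamini-Hochberg over all genes tested). In all 8 comparisons with home cage the members' median lay below 0, between -0.28 in LEC context and -0.81 in CA3 context, while the median of all genes tested lay between -0.045 and -0.008. Of the 82 members tested in all 8 comparisons, 75 had a log2 change below 0 in each of them. The context and the fear comparison of a region share their home cage libraries and are not independent. Calls were made in CA3 context (48 of 82 members), MEC fear (31 of 82) and MEC context (2 of 82), all of them lower, and in no comparison was a member called higher. Counts below with GC and length offsets, or with 1 library left out, cover the members only. The share of all genes called in those fits is not reported here, so these counts show no trait particular to the members.

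**Figure D2:**
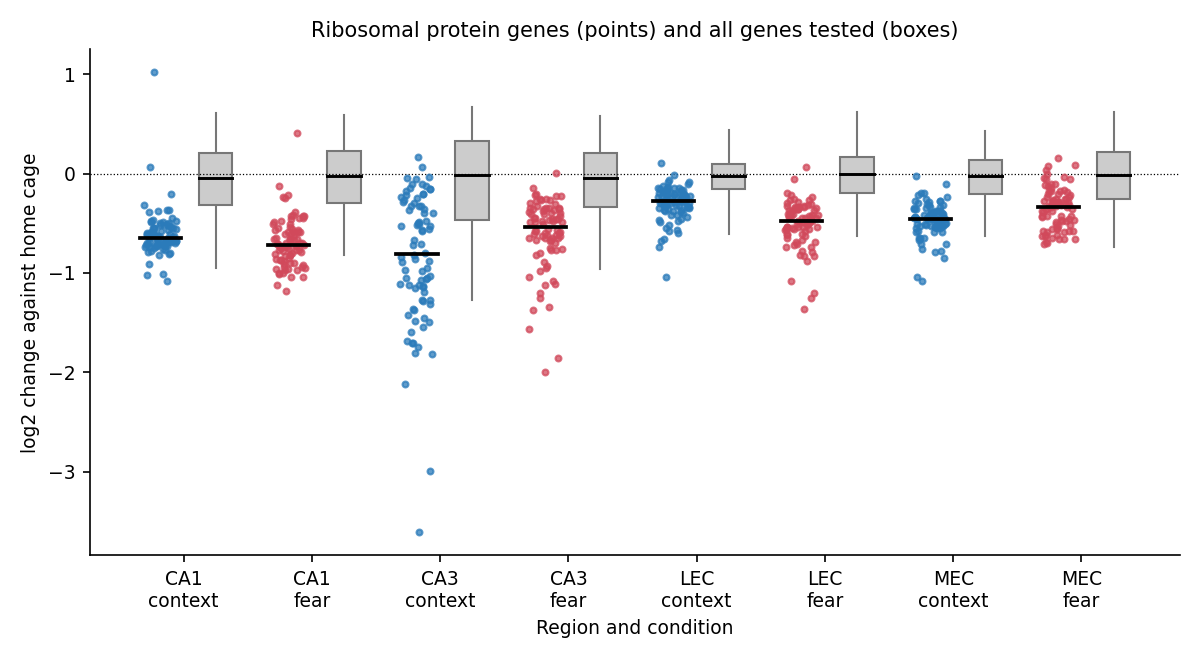
Log2 change against home cage (vertical axis) for each comparison. Points are the ribosomal protein genes with their median as a bar, and grey boxes show the quartiles, median and 5th to 95th percentiles of all genes tested. The members' median lies below the middle of the box in each comparison, and CA3 context has the widest spread, from -3.61 (Rpl36) to 0.17 (Rpl22l1).

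In CA3 after context exposure, 28 of 48 large-subunit and 20 of 34 small-subunit members fell, while 8.13% of the 16145 genes tested were called lower and 5.77% higher (13.9% in either direction). Rps19, a small-subunit protein needed for ribosome assembly and mutated in Diamond-Blackfan anaemia, was at 138, 157 and 97.3 CPM in the home cage libraries and at 61.9, 40.8 and 55.1 after context. The 2 groups did not overlap, and Rps19 fell by 1.19 ± 0.19 on the log2 scale (adjusted p = 0.045). Context 2 was its lowest library of these 6 and home cage 2 its highest. Of the large subunit, Rpl38, whose loss in the mouse embryo impairs translation of Hox mRNAs, was at 105, 123 and 71.9 CPM in home cage and at 59, 40.2 and 43.3 after context, a difference of -0.95 ± 0.19 (adjusted p = 0.045) that GC and length offsets turned to 0.17. The same offsets took Rps19 to -0.07. Rpl36 had the most negative estimate, -3.61 ± 0.92 (adjusted p = 0.0459), on low counts: 17.6, 72.5 and 6.96 CPM in home cage against 4.93, 0.814 and 1.41.

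The stalk proteins, which recruit elongation factors to the large subunit, showed how much single libraries weighed in CA3. Rplp1 was at 156, 481 and 81.2 CPM in home cage, at 50.9, 12.1 and 19.4 after context and at 56.5, 82.3 and 45.7 after fear. The groups did not overlap, with a log2 change of -2.99 ± 0.72 (adjusted p = 0.045) in context, but home cage 2 stood far above home cage 1 and 3. Rplp0, the stalk base, was at 222, 324 and 142 CPM in home cage and at 112, 45.1 and 68 after context. Other members hardly moved. Rpl39, a small protein of the exit tunnel, was at 52.1, 44.7 and 34.1 CPM in home cage and at 28.5, 44.1 and 43.2 after context, and the groups overlapped. Rpl22l1 was at 45.2, 39.1 and 31.6 CPM against 29.1, 47 and 43.4, with a log2 change of 0.17 ± 0.19 that was not called. All 3 context libraries lay below all 3 home cage libraries for 54 of the 82 members, against 17% of all genes. With offsets for GC content and mRNA length in each library, 0 of 82 members were called (median -0.41). Without context 2 and home cage 2 the members' count was also 0 (median -0.49), but so was the count over all genes, so the loss was not particular to the members. The members' count was 0 as well when any 1 of 7 libraries was left out (context 2 or 3, home cage 1 or 2, fear 1, 2 or 3).

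After fear in CA3 no member was called, although 81 of 82 had a log2 change below 0 and the median was -0.535. Rpl38 had the smallest p of the members: its fear libraries, at 42.9, 56.5 and 42.9 CPM, lay below the home cage range of 71.9 to 123, with a log2 change of -0.98 ± 0.19 (adjusted p = 0.15). Rpl30, Rpl36a and Rpl26, all of the large subunit, had log2 changes of -0.70 ± 0.16, -0.59 ± 0.13 and -0.65 ± 0.16 at the same adjusted p of 0.15. Rpl7l1, a nucleolar relative of Rpl7, was at 43.8, 40.1 and 38 CPM in home cage and at 36.4, 41 and 37.9 after fear, a change of 0.01 ± 0.13. Of all genes tested, 0.00619% were called lower. At an unadjusted p under 0.05, 50 members were below 0, against 9.55% of all genes, and none above, and DESeq2 called 17 members and 640 genes in all. Without context 2 and home cage 2 the median was -0.39 and no member was called, of 2 genes in all. Non-overlap with fear below home cage held for 29 of 82 members, against 14.9% of all genes. Leaving out home cage 3 gave 25 calls among the members, with the count over all genes not reported here.

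**Figure D3:**
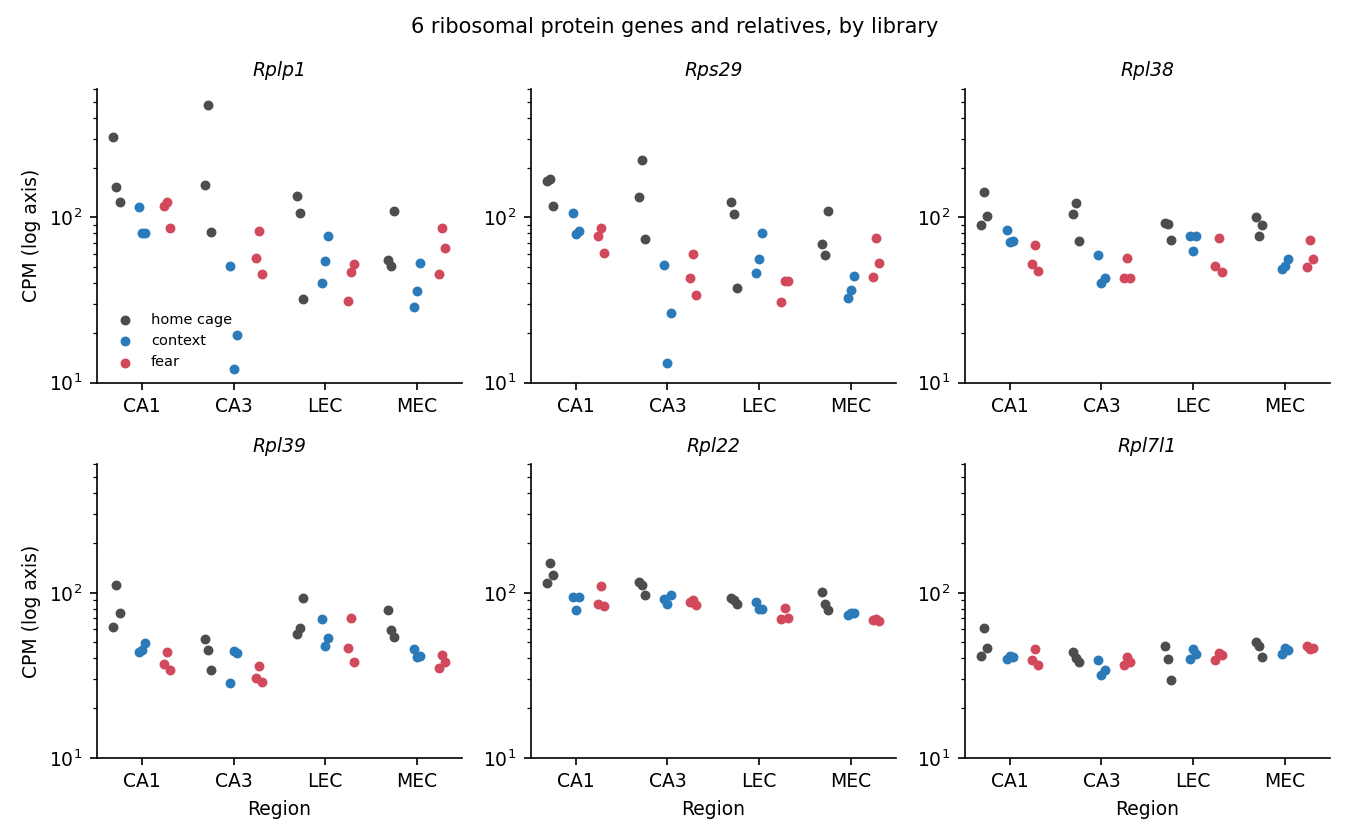
CPM of 6 members (log axis) in every library, by region and condition. Rplp1 and Rps29 spread widely in CA3, Rpl38 and Rpl39 less so, Rpl22 steps down from the hippocampal fields to the entorhinal cortex, and Rpl7l1 stays between 29.6 and 61 CPM.

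In MEC after fear, 18 of 48 large-subunit and 13 of 34 small-subunit members fell, while 3.88% of the 16314 genes tested were called lower and 5.68% higher (9.56% in either direction). Rpl26, which sits at the rim of the exit tunnel, was at 367, 272 and 274 CPM in home cage and at 175, 212 and 177 after fear, and fell by 0.66 ± 0.13 (adjusted p = 0.00813). Rpl9 was at 464, 339 and 339 CPM in home cage and at 220, 260 and 233 after fear, and fell by 0.65 ± 0.12 (adjusted p = 0.00847). Rpl39 was at 79, 59.4 and 53.7 CPM in home cage and at 35.1, 41.8 and 38 after fear, and fell by 0.70 ± 0.14 (adjusted p = 0.00992). The groups of these 3 genes did not overlap, and home cage 1 was the highest library for each. Rpl22l1 had the most negative change, -0.71 ± 0.16 (adjusted p = 0.0162), and Rpl21, of the large subunit, fell by 0.59 ± 0.12 (adjusted p = 0.0124). At the other end, Rpl8, of the large subunit, was at 118, 107 and 178 CPM in home cage and at 124, 167 and 147 after fear, a change of 0.16 ± 0.21. Rpl36 was at 6.16, 4.96 and 15 CPM against 5.01, 9.55 and 6.82, with overlapping groups and a change of -0.27 ± 0.36. All 3 fear libraries lay below home cage for 34 of 82 members, against 14.9% of all genes. GC and length offsets left 16 calls (median -0.17). The fit of all 36 libraries left 1, but the count over all genes also dropped, from 1559 to 239. Leaving out fear 3 took the count to 0, fear 1 to 5, home cage 1 to 12, fear 2 to 15 and context 2 to 18.

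After context exposure in MEC, all 82 members had a log2 change below 0 (median -0.453) and 2 fell, Rpl38 and Rps28, while 0.0736% of all genes were called lower and 0.497% higher (0.57% in either direction). Rpl38 was at 101, 77.4 and 90.5 CPM in home cage and at 49, 50.8 and 55.7 after context, and fell by 0.76 ± 0.14 (adjusted p = 0.0349). Rps28, of the small subunit, was at 48.5, 35.8 and 51.2 CPM in home cage and at 24.4, 28.4 and 27.9 after context, and fell by 0.71 ± 0.14 (adjusted p = 0.0453). Both sets of libraries were clear of each other. Rpl10a and Rps21 came next, at -0.51 ± 0.11 (adjusted p = 0.0516) and -0.78 ± 0.16 (adjusted p = 0.0529). Context lay below home cage without overlap for 50 of 82 members, against 8.33% of genes. Same-numbered MEC libraries of these 2 groups deviated together, and with the replicate number as a block 20 members were called, of 667 genes in all. DESeq2 called 29, of 559, GC and length offsets left 0 (median -0.23), and the fit of 36 libraries gave 0, of 1 gene in all. Leaving out 1 library gave 0 for context 1, 2 or 3, fear 3 and home cage 1, then 4 for home cage 2 and 17 for home cage 3. The MEC comparisons came with other cell-type markers: the summed CPM of 9 oligodendrocyte markers was 1700 to 2450 in home cage, 2450 to 2850 in context and 2520 to 3510 in fear, and 6 of the 9 rose in fear. Of 5 endothelial markers 3 rose in fear, from a summed 56.4 to 61.5 CPM to 75.1 to 104. Their part in the ribosomal protein result was not tested.

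Members called in CA3 context and in MEC fear were mostly not the same. These comparisons share no library. In both, 6 members were called, among them Rpl12, Rpl26, Rpl32, Rpl38 and Rps28, which is 12.5% of the CA3 list and 19.4% of the MEC list. The members' own calls are the scale for this overlap: 48 of 82 in CA3 context and 31 of 82 in MEC fear. Each list was thus called in the other comparison less often than the members as a whole. Of all genes, 8.13% in CA3 context and 3.88% in MEC fear were called lower. The lists depend on the threshold: 80 of 82 members in CA3 context and 77 of 82 in MEC fear were below 0. Some lay just over it, such as Rpl3 in CA3 context (adjusted p = 0.0516) and Rpl10a in MEC fear (adjusted p = 0.0583). The 48 members called in CA3 context had a median GC content of 53.08%, and the 34 not called 48.61%. In MEC fear the order was the other way round, with 48.92% for the 31 called and 53.08% for the 51 not called.

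In CA1 no member was called after either treatment, and neither was any other gene (0% of 16163). Still, the members stood low after both. Rps21, a small-subunit protein, was at 123, 131 and 82 CPM in home cage, at 58.7, 51.1 and 48.2 after context and at 50.1, 56.9 and 40.5 after fear. Every treated library lay below every home cage library, with a log2 change of -1.12 ± 0.18 in fear (adjusted p = 0.0623) and -1.01 ± 0.18 in context (adjusted p = 0.104). Rps28 was at 77, 104 and 68.8 CPM in home cage, at 50.2, 41.2 and 44.4 after context and at 39.5, 46.9 and 37.2 after fear, again without overlap (-0.94 ± 0.15, adjusted p = 0.0623, in fear). Rpl39 was at 62.3, 112 and 75.2 CPM in home cage, at 43.6, 45 and 49.4 after context and at 36.9, 43.9 and 34 after fear (-1.04 ± 0.18, adjusted p = 0.0623, in fear). The most negative change in fear was that of Rps27l, a paralog of Rps27 that p53 induces, at -1.18 ± 0.22. Rpl3l alone was above 0 in fear (0.41 ± 0.67), on a mean of 0.337 CPM over the 9 CA1 libraries.

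Fear had a median of -0.715 over the 83 members, with 82 below 0, and context -0.647 with 81 below 0. The 3 treated libraries lay below home cage without overlap for 65 members in fear, against 12.9% of genes, and for 74 in context, against 10.6%. At an unadjusted p under 0.05, 75 members in fear and 78 in context were below 0 and none above, against 9.88% and 9.59% of all genes below. DESeq2 called 73 members in fear and 69 in context, of 1401 and 1061 genes in all, and the 36-library edgeR fit 47 and 39, of 752 and 905. Same-numbered CA1 libraries of fear and home cage deviated together, and with the replicate number as a block 60 members were called in fear, of 715 genes in all. Leaving out home cage 1 gave 55 member calls in fear and 30 in context, and leaving out home cage 3 gave 61 and 3, with the counts over all genes not reported here. Without context 2 and home cage 2 the medians were -0.54 and -0.41 and no member was called, nor any other gene. Other cell types moved as well: summed blood markers were 32.9 to 85.1 CPM in home cage, 22.4 to 44.2 in context and 23.8 to 37.5 in fear, all 9 oligodendrocyte markers were below 0 in both comparisons, and interneuron markers were 386 to 491 CPM in home cage against 587 to 722 in the treated groups, with no marker called. Markers of neighbouring fields were low after context, with medians of -1.39 over 6 dentate granule and -1.22 over 5 CA3 pyramidal markers, all below 0. After fear these medians were 0.116 and 0.417. The part of these cell types was not tested.

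In LEC the median after context was -0.277 over 83 members, the nearest to 0 of the 8 comparisons, and after fear -0.48, with 82 below 0 in each, and 0 members were called (0% of 16402 genes). DESeq2 also called 0 members, of 3 genes in all in context and 39 in fear. At an unadjusted p under 0.05, 5 members were below 0 in context, against 1.24% of all genes, and 58 in fear, against 3.86%. Rpl35, of the large subunit, had the smallest p in fear, at -0.78 ± 0.20 (adjusted p = 0.527). Rps28 was at 56.8, 65.4 and 35.3 CPM in home cage, at 32.5, 32 and 41.5 after context and at 23.6, 36.4 and 29.7 after fear. Home cage 3 lay among the treated libraries, so the groups overlapped, as they did for most members: fear lay fully below home cage for 24 of 83, against 5.42% of genes, and context for 9, against 3.28%. Without home cage 3, 15 members were called in fear, with the count over all genes not reported here. Rps27rt, a copy of Rps27 of which 91.1% lies in shared stretches, had -1.20 ± 0.32 in fear (adjusted p = 0.527) and -1.04 ± 0.31 in context (adjusted p = 1), at 1.86 to 6.72 CPM in the 9 libraries.

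Between fear and context no member was called in any region by edgeR, nor was any other gene (0%). At an unadjusted p under 0.05 there were 4 members for CA1, 19 for CA3, 1 for LEC and 12 for MEC. All genes gave 5.68%, 23.4%, 1.26% and 14.7%, so with both directions pooled these counts were near the background. By direction, MEC had 12 members higher and 0 lower, against 7.79% and 6.89% of all genes. CA3 had 15 higher and 4 lower, against 12.2% and 11.3%, and CA1 had 0 and 4, against 3.42% and 2.26%. The members' median was -0.056 for CA1, 0.232 for CA3, -0.191 for LEC and 0.079 for MEC. In LEC 48 of 49 large-subunit and 34 of 34 small-subunit members were below 0, against 18 of 48 and 12 of 34 in CA3 and in MEC. In CA3, Rpl8 was at 109, 163 and 104 CPM after fear and at 87.5, 34.6 and 52.2 after context (1.08 ± 0.33, adjusted p = 0.151). Fear lay above context without overlap for 22 of the 82 members in CA3 (14.1% of all genes) and below it for 7 (14.4% of all genes). In LEC 5 of 83 members had fear fully below context, against 4.21% of genes, in CA1 12 of 83, against 7.29%, and in MEC 8 of 82, against 12.1%. DESeq2 called 3 members in CA3 (730 genes in all) and 0 in CA1, LEC and MEC (15, 0 and 48 genes in all). Leaving out CA3 context 1 gave 19 members, with the count over all genes not reported here. Without context 2 and home cage 2 the CA3 median was 0.11.

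The members' changes were set against mRNA length and GC content, as a description across genes, which are not independent. In CA3 context, Pearson's r between log2 change and GC content was -0.65 over the 82 members and -0.66 over 14425 other coding genes. Members with under 48% GC had a median of -0.331 there and members with 56% or more -1.43. The same classes of other coding genes with mRNAs up to 1000 bases had 0.036 and -1.02, so the members lay lower in both. In MEC fear the correlation with GC content was positive, at 0.53 over the members and 0.36 over 14536 other genes, with medians of -0.529 under 48% and -0.199 from 56% upwards, against -0.352 and 0.0202 for the other short genes. In CA1 context r with GC content was 0.00 and in LEC fear -0.26. With log2 mRNA length, r was positive over the members in all 8 comparisons with home cage, from 0.16 in MEC fear to 0.58 in MEC context. Shorter listed mRNAs thus tended to have the more negative changes. Over other coding genes it was 0.12 to 0.36. The size of r depended on the length used. Merged exons in place of 1 mRNA took r over the members in CA1 context from 0.30 to 0.06, and coding length took it to 0.35. In MEC fear merged exons took it from 0.16 to 0.03 and coding length to 0.30. Across the 8 comparisons r ran from 0.03 to 0.58 with merged exons and from 0.22 to 0.54 with coding length.

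**Figure D4:**
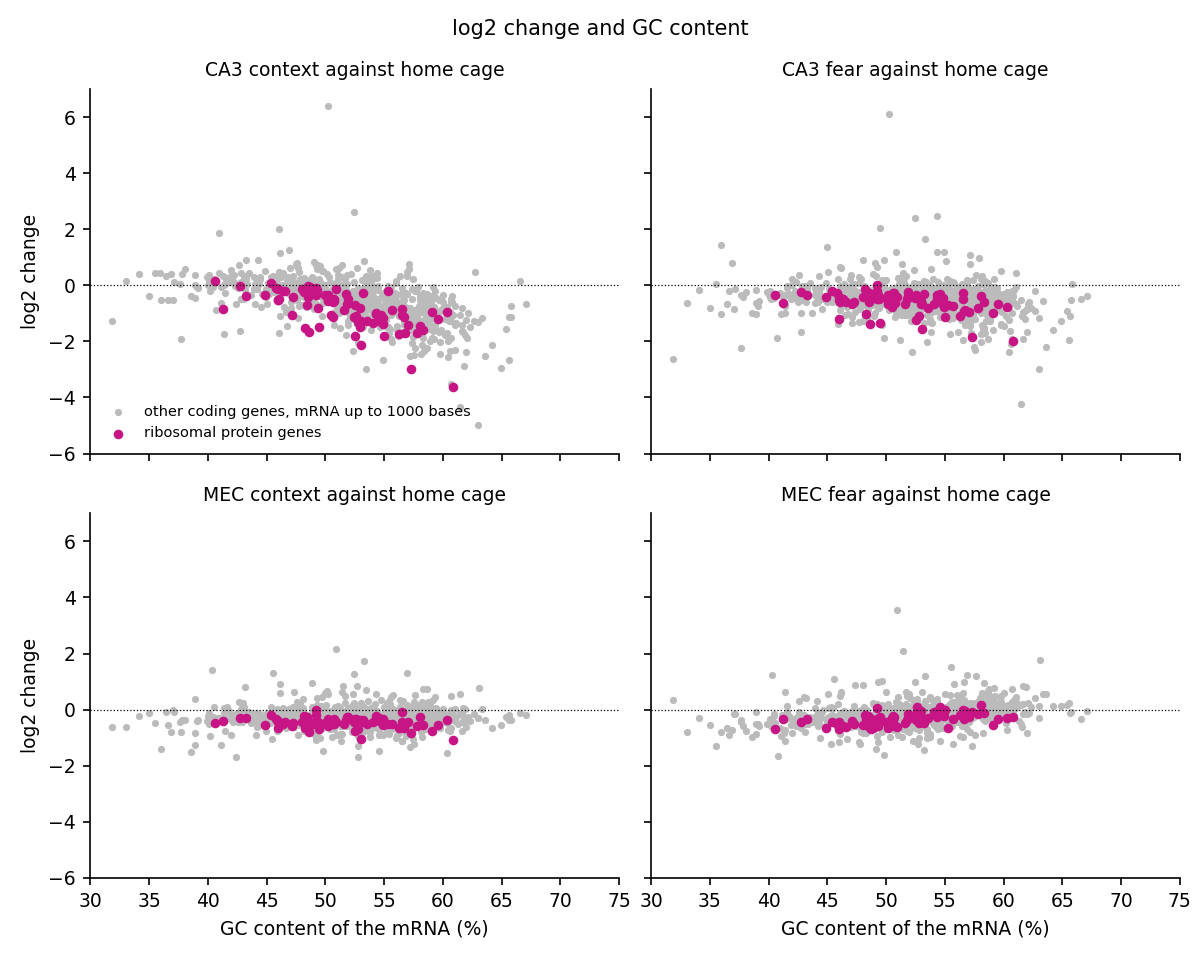
Log2 change against home cage (vertical axis) by GC content of the mRNA (horizontal axis, %) in CA3 and MEC. Magenta points are ribosomal protein genes and grey points other coding genes with mRNAs up to 1000 bases. Both sets slope down in CA3 context (r = -0.65 for the ribosomal protein genes) and up in MEC fear (r = 0.53).

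At like length the members lay lower than other coding genes in most comparisons. For mRNAs up to 600 bases, the 24 members in CA1 fear had a median of -0.899 and 136 other coding genes -0.467. In MEC context the medians were -0.562 and -0.4, and in LEC fear -0.572 and -0.437. CA3 fear was the exception in this class, with -0.664 for the members and -0.713 for the others. Rps15a and Rps20 had the longest listed mRNAs of the ribosomal proteins, at 5179 and 3706 bases, of which 390 and 357 are coding. Whether these listed transcripts were the ones expressed was not tested, so they are set against long genes by listed length only. In CA1 context Rps20 had -0.81 ± 0.16 (adjusted p = 0.104). Other coding genes of over 2000 and up to 4000 bases had a median of -0.0338 in this comparison. Rps15a was at -0.47 ± 0.14 there (adjusted p = 0.119), at 0.07 ± 0.14 in CA3 context and, the 1 comparison where it was called against home cage, at -0.43 ± 0.12 in MEC fear (adjusted p = 0.0408). Other coding genes of over 4000 bases had medians of 0.102, 0.225 and 0.0744 in these comparisons. Counted per library, the members and the other short coding genes moved the same way in most libraries. In CA1 home cage 2 the members' median stood 0.754 log2 units above the mean of the CA1 libraries and that of other short genes 0.42 above. In CA3 context 2 the values were -0.491 and -0.314, and in MEC context 3 -0.0381 and -0.0569. The signs differed in some libraries near 0, such as CA3 fear 2 (0.0778 and -0.0519) and LEC home cage 3 (0.0719 and -0.0371).

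**Figure D5:**
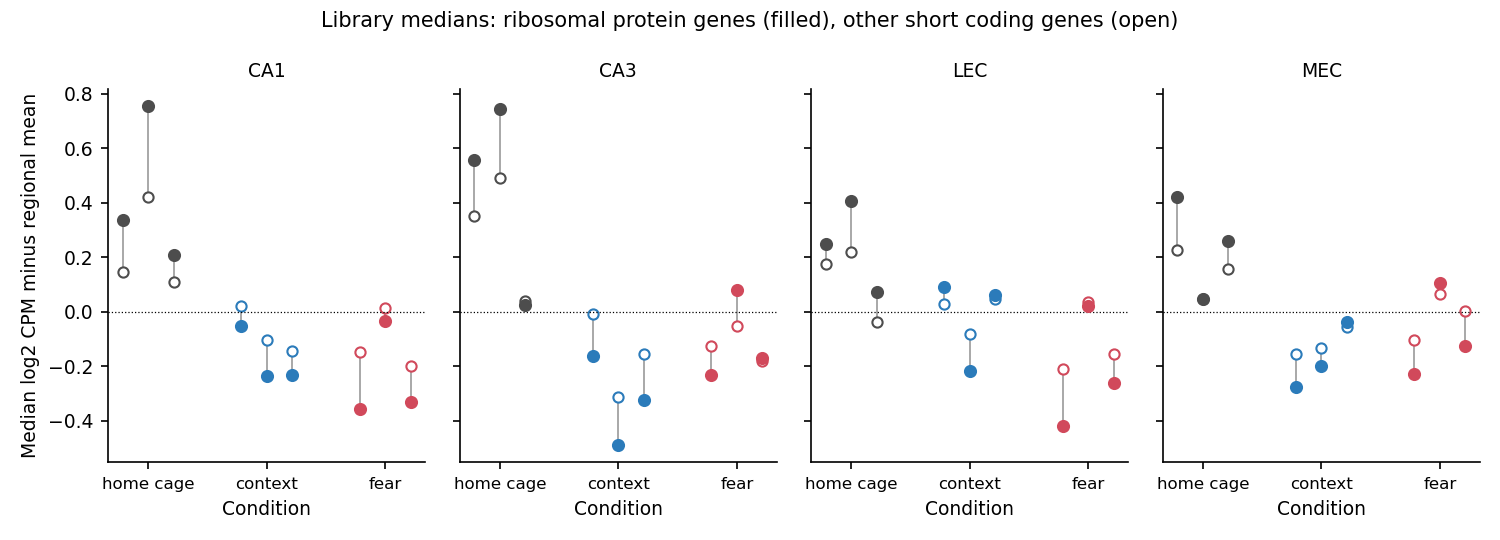
Median log2 CPM minus the mean over the 9 libraries of the region (vertical axis), for ribosomal protein genes (filled) and for other coding genes with mRNAs up to 1000 bases (open), 1 pair per library. Filled points lie farther from 0 than open points in most libraries, with the highest in CA1 home cage 2 (0.754) and CA3 home cage 2 (0.745).

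Regions were compared over all 3 conditions with the 36-library fit. Levels of the members were lower in CA3 than in CA1: 67 of 83 were called lower and none higher, with all 83 below 0 and a median of -0.438, against 14.6% of 17875 genes called lower. Rps19 was at 138 ± 45.7 CPM in CA1 (SD, n = 9) and 87.1 ± 38.8 in CA3, a difference of -0.65 ± 0.10 on the log2 scale (adjusted p = 1.21e-05). Rpl4 was at 638 ± 127 and 455 ± 64 CPM (-0.41 ± 0.07, adjusted p = 1.21e-05), Rpl3 at 614 ± 154 and 422 ± 93.4 (-0.47 ± 0.08, adjusted p = 1.58e-05), and Rps23, a small-subunit protein at the decoding centre, at 197 ± 68.9 and 127 ± 33.8 (-0.54 ± 0.09, adjusted p = 2.89e-05). Rpl22 differed least, at 105 ± 24 and 95.6 ± 11.3 CPM (-0.04 ± 0.06, adjusted p = 0.635). The SDs include the spread between conditions. With GC and length offsets 73 members were called, and leaving out any 1 library gave 56 to 72, with 56 without CA1 home cage 2, 61 without CA3 context 2 and 72 without CA3 home cage 2. Markers of other cell types differed too: 7 of 9 microglia, 4 of 5 blood, 3 of 5 endothelial and 6 of 6 dentate granule markers were lower in CA3, and 5 of 9 oligodendrocyte markers higher. Their part in the difference was not tested. The fit treats the 36 libraries as independent, though 1 mouse may have given several.

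Entorhinal cortex and hippocampal fields differed less. Of the members 32 were called lower in the entorhinal cortex and none higher, with a median of -0.147. Of all genes 25.4% were called lower, so the members' share of 38.6% called lower was not far above the background. The direction was less even: at an unadjusted p under 0.05, 40 members were lower and 1 higher, against 28% and 27.6% of all genes. Rpl22 was the clearest, at 81.9 ± 8.27 CPM in LEC and 77.2 ± 10.4 in MEC against 105 ± 24 in CA1 and 95.6 ± 11.3 in CA3, a difference of -0.36 ± 0.04 (adjusted p = 1.79e-08). Rps27l was at 6.18 ± 1.27 and 5.43 ± 1.51 CPM against 9.45 ± 4.04 and 7.12 ± 2.17 (-0.51 ± 0.10, adjusted p = 3.59e-05). Rplp1 had the most negative difference, -0.74 ± 0.22 (adjusted p = 0.00485), and Rpl39 the highest, 0.20 ± 0.09 (adjusted p = 0.0565). Without CA1 context 1 the count was 21. In the same contrast 9 of 9 oligodendrocyte markers (median -1.98), 5 of 6 dentate granule and 3 of 4 choroid plexus markers were called lower, and their part was not tested. Between MEC and LEC, Rpl39 was the 1 member called, at 48.3 ± 13.8 and 59.5 ± 16.3 CPM (-0.35 ± 0.12, adjusted p = 0.0486), against 8.59% of genes called lower and 8.8% higher, and the count ran from 0 to 5 with 1 library left out. DESeq2 called 2 members there, of 3549 genes in all, so the members were not singled out in this contrast.

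Whether the response to treatment differed between entorhinal cortex and hippocampus was tested as an interaction. No member and no other gene was called by edgeR (0% of genes). At an unadjusted p under 0.05 there were 32 of 83 members for context and 2 of 83 for fear, against 16% and 11.6% of all genes. For context 31 were higher and 1 lower, against 8.22% and 7.78% of all genes. For fear 2 were higher and 0 lower, against 5.52% and 6.07%, so the pooled fear count lay below the background. For context the members' median was 0.337, an estimate above 0 meaning a less negative response in entorhinal cortex, with the smallest p for Rps18 (0.61 ± 0.18, adjusted p = 0.196) and Rps20 (0.58 ± 0.17, adjusted p = 0.196). For fear the median was 0.219, and Rps20 again had the smallest p (0.42 ± 0.17, adjusted p = 0.378). DESeq2 also called 0 members in both, of 21 genes in all for context and 48 for fear.

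The by-name members outside the standard set and the paralogs did not all follow the rest. Rpl7l1 was below 0 in 4 of the 8 comparisons with home cage. Its log2 change was -0.21 in CA1 context, -0.22 in CA1 fear, -0.10 in CA3 context, 0.01 in CA3 fear, 0.11 in LEC context, 0.07 in LEC fear, -0.02 in MEC context and 0.04 in MEC fear, none of them called. Rps19bp1, which binds Rps19, was at 9.4, 17.4 and 9.63 CPM in CA1 home cage, at 12.2, 12.5 and 11.3 after context and at 11, 10.6 and 9.95 after fear, with overlapping groups. In CA3 context it did go with the rest. There it was at 9.07, 15.8 and 8.78 CPM in home cage and at 7.3, 4.15 and 5.76 after context, without overlap. Its log2 change of -0.84 ± 0.26 (adjusted p = 0.0526) was close to the members' median of -0.81. Rps27l and Rpl22l1 were lower in the treated CA1 libraries in step with the standard members, and Rpl22l1 was at 59.7, 99.4 and 73.3 CPM in home cage against 34.8, 42.7 and 31.7 after fear (-1.01 ± 0.17, adjusted p = 0.0623). Its parent Rpl22 was at 115, 152 and 128 CPM against 86.1, 109 and 83.1, also without overlap.

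Other genes of protein synthesis were read from lists. Fau and Rack1, small-subunit proteins that carry other names, were called lower in CA3 context, where Fau fell by 1.98 ± 0.42 and Rack1 fell by 0.86 ± 0.22 (adjusted p = 0.045 for both). The 15 genes of the elongation list, which also holds termination factors, had medians between -0.137 and 0.0171 in the 8 comparisons with home cage. In CA3 context 2 of them rose, Gspt1 and Etf1 of translation termination (0.75 ± 0.17 and 0.54 ± 0.15), and 1 fell, Eef2, which moves the ribosome along the mRNA (-1.07 ± 0.27). Of 34 initiation factors 5 rose and 2 fell there (median 0.233), and of 48 ribosome biogenesis genes 3 rose and 3 fell (median 0.0161), among them Ncl, a nucleolar protein, at 0.59 ± 0.15 and Nhp2, of snoRNA particles, at -1.23 ± 0.21. Of all genes tested in CA3 context, 5.77% were called higher and 8.13% lower, and the counts of the biogenesis list lay near these shares. In MEC fear, 1 elongation factor, Eef1b2, fell (-0.43 ± 0.12), 4 initiation factors rose and 2 fell (median -0.00687), and 4 biogenesis genes rose and 0 fell (median 0.00867), among them Rrp12 at 0.62 ± 0.14 and Polr1a, the large subunit of RNA polymerase I, at 0.48 ± 0.12. Among all genes tested in MEC fear, 5.68% were called higher and 3.88% lower. In MEC context 0 genes of these 3 lists were called, and neither were any in CA1, in LEC or in CA3 fear.

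Nuclear genes for mitochondrial proteins were set beside them. Of the genes of the respiratory chain, 35 of 93 tested fell in CA3 context and none rose (median -0.399), with log2 changes of -1.55 ± 0.30 for Uqcr10 and -1.76 ± 0.36 for Ndufa2. In MEC fear 5 of 93 fell and none rose (median -0.186). All genes called lower made up 8.13% in CA3 context and 3.88% in MEC fear. Mitochondrial ribosomal proteins, which share the function but not the ribosome, had medians of -0.206 in CA3 context, where 10 of 75 fell against 8.13% of all genes, and -0.125 in MEC fear, where 2 of 75 fell against 3.88% of all genes. In CA3 context the markers of blood and microglia moved too: 4 of 5 blood markers and 3 of 9 microglia markers fell. Summed blood markers were 32.4 to 58.4 CPM in CA3 home cage and 9.04 to 19.7 after context, and summed microglia markers 291 to 446 and 242 to 285. Dentate granule markers, the neighbouring cell type, were at 103 to 197 CPM in home cage and 74.2 to 237 after context, with 1 of 6 called lower. Their part in the ribosomal protein result was not tested.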

How the data were processed

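The authors deposited raw counts of reads per gene for 36 polyA RNA libraries (Illumina TruSeq Stranded mRNA, per the labels' protocols). Per the submitters' processing notes, Trimmomatic 0.33, STAR 2.7.10b, HTSeq 2.0.1 and the mm10 build were used. Settings, strand included, are not stated there. Gene IDs were matched to GENCODE M21 (35533 of 37315, 95.2%, had a symbol), from which 1 mRNA per gene gave length and GC content. Each region's 9 libraries were filtered (filterByExpr), TMM-normalized and tested in edgeR by robust quasi-likelihood, with 6 residual degrees of freedom. Regions and interactions used all 36, with 24. Members and lists were chosen with earlier results of these data known. Named were the members of smallest p, the extremes, the shortest and longest mRNAs, the highest and lowest levels, paralogs with their parents, the stalk, Rpsa, Rpl36, Rpl38 and Rps28, of which the text prints a part; a few genes are not reported here.

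The labels give replicate numbers in every group, with no word on mice. Deviations of same-numbered libraries over 10149 genes correlated above 0.1 for every pair in CA1 fear and home cage (0.3, 0.4 and 0.23) and in MEC context and home cage (0.6, 0.33 and 0.76), and in 0 of the other 10 comparisons. Alternatives are in the closing section. Coding length was added after seeing the data. The procedure was tested on simulated data. Versions were edgeR 4.0.16 and DESeq2 1.42.0 under R 4.3.3, and scipy 1.17.1 under Python 3.11.15.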

Additional observations from a re-analysis of the deposited data

How the results depend on the processing

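In all 8 comparisons with home cage the members' median log2 change stayed below 0 under every alternative run, from -0.97 to -0.41 in CA3 context and from -0.39 to -0.18 in LEC context; the counts of calls moved more. Members called after CA1 fear, CA1 context, CA3 fear and MEC context were 62, 37, 1 and 28 without a filter on low counts and 73, 69, 17 and 29 with DESeq2, which called 3 in CA3 fear against context. The 36-library fit gave 47, 39, 21 and 0, and 1 in MEC fear. Over all genes that fit called 752, 905, 1235 and 1, and 239 in MEC fear. The replicate block gave 60 calls in CA1 fear, 20 in MEC context and 0 in MEC against LEC, and changed no other count by over 1.5 times. GC and length offsets gave 0 in CA3 context, 16 in MEC fear, 0 in MEC context and 11 in MEC against LEC; with the replicate block added these were 19, 16, 1 and 11, and CA3 fear had 1. MEC against LEC had 2 calls with RLE normalization and with DESeq2, and 0 with TMM without the members and with no filter, where entorhinal cortex against hippocampal fields had 21. Without context 2 and home cage 2, CA3 context had 0 members called and 0 genes in all. With 1 library left out, counts ran from 0 to 61 in CA1 fear, 0 to 30 in CA1 context, 0 to 25 in CA3 fear, 0 to 58 in CA3 context, 0 to 19 in CA3 fear against context, 0 to 15 in LEC fear, 0 to 36 in MEC fear, 0 to 17 in MEC context, 0 to 5 in MEC against LEC, 56 to 72 in CA3 against CA1 and 21 to 44 in entorhinal cortex against hippocampal fields; the cause was not tested.

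Some estimates changed sign; with 1 library left out, Rpl7l1 ran from -0.01 to 0.08 in CA3 fear, -0.08 to 0.22 in LEC fear, -0.03 to 0.27 in LEC context and -0.1 to 0.06 in MEC context, Rpl3l in LEC fear against context from -0.19 to 0.42 and Rpl36 in MEC fear from -0.55 to 0.41. Rpl7l1 went to -0.01 in CA3 fear (GC and length offsets, with and without the block; without context 2 and home cage 2; without fear 3 or home cage 3). In LEC fear it went to -0.03 with the offsets, -0.01 with the block added and -0.08 without home cage 3, in LEC context to -0.03 without home cage 3, and in MEC context to 0.01 in the 36-library fit and without context 1 and 0.06 without home cage 1. Rpl38 in CA3 context went from -0.95 to 0.17 with the offsets and 0.16 with the block added. Rpl3l in LEC fear against context went to -0.15 without context 2 and -0.19 without fear 1, and Rpl36 in MEC fear to 0.41 without home cage 3. Leaving out mitochondrially encoded counts moved the share by over 1 SD in 1 of 12 groups, and coding length moved the level per kilobase by over 1 SD for 56 of 85 members. Depth limits Rpl10l, Rpl39l, Rpl3l and Rps27rt.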
